A study of Mus musculus with 4 samples.

Results

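The genes that carry the corticosteroid signal were followed through nuclei of the mouse hippocampus after repeated social defeat (RSD). They were the receptors Nr3c1 and Nr3c2, the immunophilins Fkbp5 and Fkbp4, the steroid enzyme Hsd11b1, and the responsive genes Zbtb16, Per1, Sgk1, Tsc22d3 and Errfi1. These 10 genes, of 56748 in the gene table, were chosen by name for their known roles, but with earlier results of these data known. All 10 were found by symbol. Nuclei were counted in 8 pools, each of hippocampi from 3 male mice, by single-nuclei RNA sequencing with split-pool barcodes. In the diet experiment, Control-Vehicle and Stress-Vehicle mice were given AIN-76A chow, and Control-PLX5622 and Stress-PLX5622 mice were given that chow with PLX5622 (1200 mg/kg), a CSF1R inhibitor that depletes microglia, from 7 days before RSD. In the transgenic experiment, Con-IL-1R1+/+ and Stress-IL-1R1+/+ mice were Cre-negative, and Con-nIL-1R1-/- and Stress-nIL-1R1-/- mice carried Cre under Vglut2 (Slc17a6) to delete the interleukin-1 receptor IL-1R1 from the neurons that express it, so glia keep the receptor. Purchased C57BL/6 mice were 5 to 7 weeks old, and the age of the transgenic lines is not given in the sources used here. In RSD an aggressor was placed in the home cage for 2 h on each of 6 nights, from 16:00 to 18:00, control mice were left undisturbed, and the hippocampus was taken 14 h after the final night. The comparison was stress against control over 4 pairs of pools: vehicle, PLX5622, IL-1R1+/+ and nIL-1R1-/-.

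Corticosterone, the main glucocorticoid of the mouse, enters cells and binds receptors that are also transcription factors. The mineralocorticoid receptor (MR, from Nr3c2) binds it tightly and is occupied at low hormone levels, while the glucocorticoid receptor (GR, from Nr3c1) binds it less tightly and fills at the daily peak and under stress, and the hippocampus is known for its high level of MR. Unbound receptors sit in a complex with HSP90 and an immunophilin, FKBP5 or FKBP4, and after binding hormone they enter the nucleus and act at DNA elements built from inverted copies of AGAACA, near genes such as Fkbp5, Sgk1, Tsc22d3, Zbtb16 and Per1.

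In all, 56834 nuclei were kept. Total unique transcripts (UMIs) per pool ran from 7534594 to 58081835, and both PLX5622 pools were shallow, with median UMIs per nucleus of 598 and 628 against 1325.5 to 5012 in the other pools. Every stress pool held fewer total UMIs than the control pool of its pair. The median per nucleus was 2563 in Control-Vehicle and 1325.5 in Stress-Vehicle, and 5012 in Con-nIL-1R1-/- and 2580 in Stress-nIL-1R1-/-. In the IL-1R1+/+ pair it was 3098.5 in the control and 3218.5 in the stress pool. No barcode was shared between pools. Clustering without the 10 genes gave 44 clusters, of which 25, with 21845 nuclei, matched no marker list clearly and were left unnamed, so the classes below are "-like" from their markers. Levels are UMIs summed over a class in a pool and divided by all UMIs of that class and pool, and given per 1000000 UMIs (CPM). A class sum cannot tell fewer nuclei with a transcript from fewer transcripts per nucleus. The nuclei of a class did not come from the same clusters in each pool: 65.8% to 85.6% of CA1-like nuclei in Control-PLX5622, Stress-Vehicle and Stress-PLX5622 lay in a cluster that held 9.2% to 32.7% of them in the other 5 pools, and DG-like nuclei were split in the same way. Microglia-like nuclei (203 in all) were absent from both PLX5622 pools and fell short of the 20 nuclei per pool in at least 3 pairs that were asked for a test. Each pool mixed 3 mice, so p-values measure the spread between pools and not between mice. In the fits of RSD a term for the pair took out the differences between pairs. Nothing was tested between single pools.

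Over the 4 pairs, edgeR called Fkbp5 and Zbtb16 in oligodendrocyte-like nuclei and Zbtb16 in oligodendrocyte precursor-like (OPC-like) nuclei higher with RSD. Of these, DESeq2 called only Zbtb16 in oligodendrocyte-like nuclei. The counting intervals of Fkbp5 included 0 in both diet pairs, and Zbtb16 in OPC-like nuclei was lower in the PLX5622 pair. FKBP5 is the immunophilin that lowers the affinity of GR for hormone, and ZBTB16 is a zinc finger transcription factor. Fkbp5 in oligodendrocyte-like nuclei was 117 ± 110 CPM (SD, n = 4) in control pools and 251 ± 40.8 CPM (SD, n = 4) in stress pools. Zbtb16 was 646 ± 514 CPM in control and 1393 ± 659 CPM in stress pools of the same class, and 447 ± 278 CPM against 736 ± 178 CPM in OPC-like nuclei. In neurons, Per1 was higher and Nr3c2 lower in the stress pool of every pair over all neurons, and neither passed the test. Of 66 tests of a gene in a class, 3 were called higher and 0 lower by edgeR's quasi-likelihood test at an adjusted p of 0.05. All neurons, 1 of the 9 classes fitted, include the DG-like, CA1-like, CA2/3-like and inhibitory-like nuclei, so these tests overlap. At an unadjusted p under 0.05, 19 were higher and 10 lower, against 6.07% (OPC-like) to 17.2% (CA1-like) of all genes of a class in either direction. DESeq2 called Zbtb16 in oligodendrocyte-like nuclei and Per1 in CA1-like nuclei and all neurons (3 higher), and Nr3c2 in CA2/3-like nuclei and all neurons (2 lower). It called 149 genes higher and 51 lower of 18081 in all neurons, and 59 and 25 of 10440 in CA2/3-like nuclei. In CA1-like nuclei it called 36 and 20 of 10341, and in oligodendrocyte-like nuclei 3 and 0 of 4456. Of all genes tested, edgeR called 0.269% in oligodendrocyte-like, 0.0304% in OPC-like, 0.0547% in DG-like, 0.00967% in CA1-like and 0.0958% in CA2/3-like nuclei and 0.0221% in all neurons. It called 0% of genes in inhibitory-like, astrocyte-like and endothelial-like nuclei, where 1015, 175 and 275 genes had an unadjusted p under 0.05 and DESeq2 called 1, 0 and 2.

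**Figure D1:**
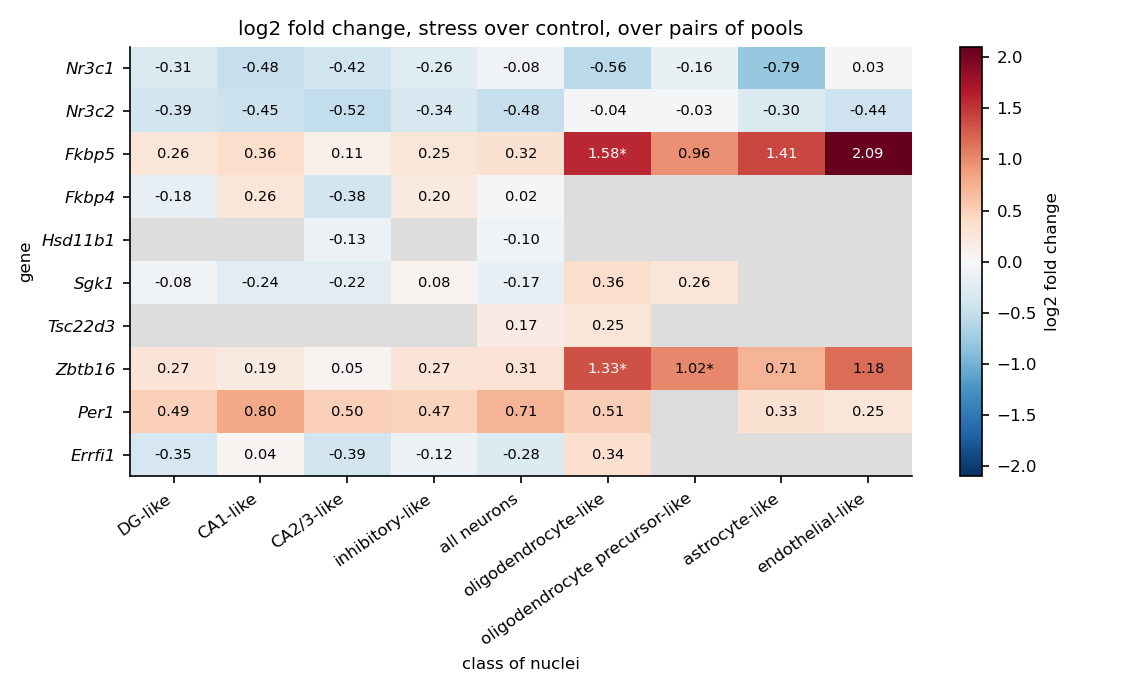
Fitted log2 fold change of stress over control for each gene (rows) and class of nuclei (columns), from edgeR over 4 pairs of pools (3 pairs in endothelial-like nuclei). The all neurons column includes the nuclei of the 4 neuronal classes beside it. An asterisk marks an adjusted p under 0.05, and grey cells are genes too low to be tested: Fkbp5 and Zbtb16 are positive in all 9 columns, with the 3 asterisks in oligodendrocyte-like and oligodendrocyte precursor-like nuclei, and Nr3c2 is negative in all 9.

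The receptors had opposite distributions over the classes. Nr3c2 (chr8:77625576-77971863, plus strand, GRCm39) was highest in the principal neurons, at 1269 ± 293 CPM in DG-like, 1177 ± 342 CPM in CA2/3-like and 1075 ± 346 CPM in CA1-like nuclei (SD, n = 8 pools). It was about as high in astrocyte-like (595 ± 128 CPM), inhibitory-like (541 ± 82.8 CPM) and endothelial-like nuclei (539 ± 179 CPM, n = 7) and lowest in OPC-like (300 ± 60.2 CPM), oligodendrocyte-like (266 ± 35.01 CPM) and microglia-like nuclei (257 ± 78.4 CPM, n = 5). Nr3c1 (chr18:39543598-39652474, minus strand) ran the other way, from 324 ± 100 CPM in microglia-like and 240 ± 38.7 CPM in endothelial-like nuclei, through 182 ± 61.6 CPM in oligodendrocyte-like, 163 ± 53.3 CPM in OPC-like and 137 ± 74.3 CPM in astrocyte-like nuclei, to 99.8 ± 31.6 CPM in CA1-like, 78.8 ± 20.1 CPM in DG-like, 57.6 ± 10.8 CPM in inhibitory-like and 37.3 ± 7.35 CPM in CA2/3-like nuclei. Within pools, CA1-like was above DG-like, DG-like above inhibitory-like and inhibitory-like above CA2/3-like for Nr3c1 in 8 of 8 pools, each with p = 0.00781 and an adjusted p of 0.0694 (two-sided exact permutation test within pools, adjusted over 80 comparisons of neighbouring classes for the 10 genes), which is the smallest p that 8 pools can give. None of the 80 neighbouring steps passed, and for Nr3c1 oligodendrocyte-like, OPC-like and astrocyte-like nuclei lay within each other's spread, as did astrocyte-like, inhibitory-like and endothelial-like nuclei for Nr3c2.

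**Figure D2:**
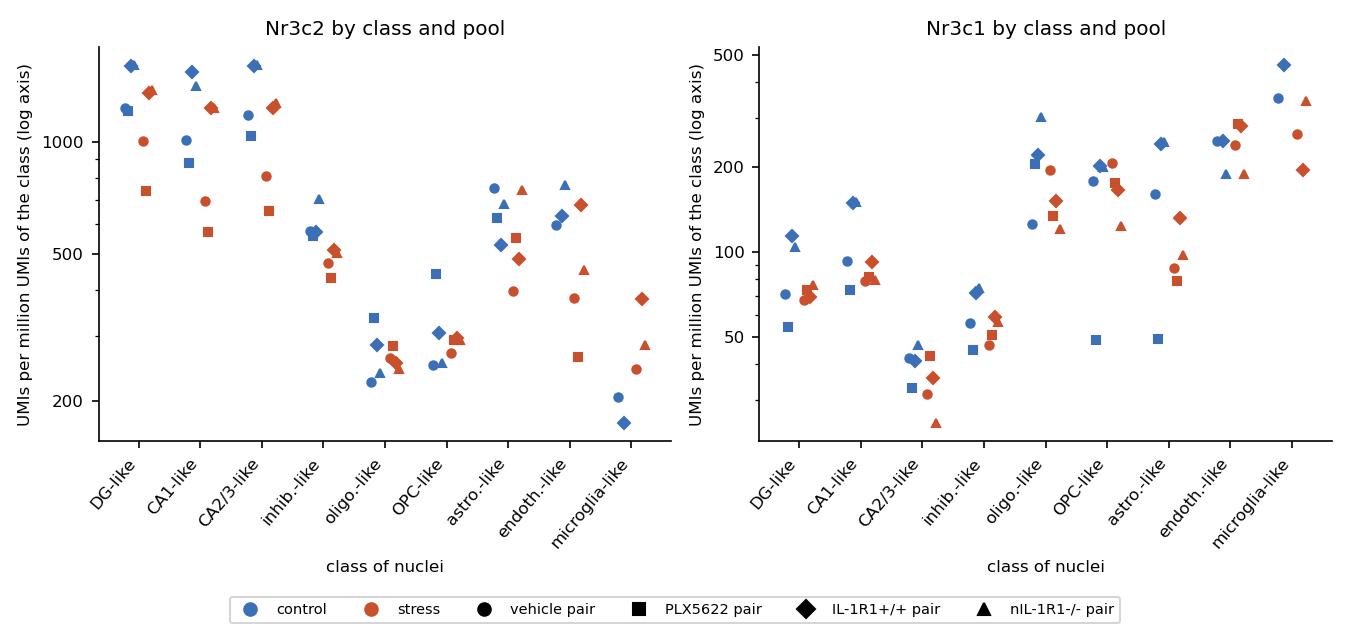
Level (CPM, log axis) of Nr3c2 and Nr3c1 in each class of nuclei, with 1 point per pool of 3 mice and at least 20 nuclei. The colour gives the arm and the shape the pair: Nr3c2 falls from a mean of 1269 in DG-like to 266 in oligodendrocyte-like nuclei, and Nr3c1 is lowest in CA2/3-like and highest in microglia-like nuclei.

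The levels in glia stood beside some neuronal RNA. The 4 pan-neuronal markers Syt1, Snap25, Rbfox3 and Meg3 together stood in oligodendrocyte-like nuclei at 11.8% to 20% of their level in all neurons of the same pool, with a median of 14.8%. Nr3c2 in oligodendrocyte-like nuclei was at 31.9% (median of 8 pools, 20.6% to 44.9%) of its level in neurons. The part of RNA from neurons in these levels was not tested. Nr3c1 was at 199% (133% to 289%), Fkbp5 at 231% (37.1% to 285%) and Zbtb16 at 141% (43.4% to 251%). Each was above the markers' share in every pool of oligodendrocyte-like nuclei. The markers reached higher shares elsewhere, up to 35.1% in OPC-like, 41.3% in astrocyte-like and 39.6% in endothelial-like nuclei. The lowest Fkbp5 shares there, 0%, 12.9% and 30.8%, were below these. The lowest Zbtb16 share was below them in OPC-like and astrocyte-like nuclei and above in endothelial-like nuclei (49.5%). Nr3c1 stayed above them in each of these classes.

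The ratio of Nr3c2 to Nr3c1 UMIs within a class and pool needs no division by total UMIs, but it compares genes of unequal length and is read here only between classes. The part of depth in this ratio, and of the shifts in the clusters that make up a class, was not tested. Its log2 had a median of 5.04 in CA2/3-like, 4.03 in DG-like, 3.42 in CA1-like, 3.19 in inhibitory-like, 2.20 in astrocyte-like, 1.27 in endothelial-like, 0.72 in oligodendrocyte-like, 0.67 in OPC-like and −0.28 in microglia-like nuclei. CA2/3-like exceeded DG-like nuclei by 0.94 ± 0.39 (SD) and DG-like exceeded CA1-like nuclei by 0.60 ± 0.21, both in 8 of 8 pools (adjusted p = 0.0312, exact permutation test within pools over 8 neighbouring steps, chosen after the values were seen). Inhibitory-like exceeded astrocyte-like nuclei by 0.95 ± 0.72, in 7 of 8 pools (adjusted p = 0.0416, same exact test). The other 5 steps did not pass. The medians of the 4 neuronal classes were above those of the glial and endothelial classes, though in Control-PLX5622 astrocyte-like nuclei (3.67, on 4 Nr3c1 UMIs) were above inhibitory-like nuclei (3.63).

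**Figure D3:**
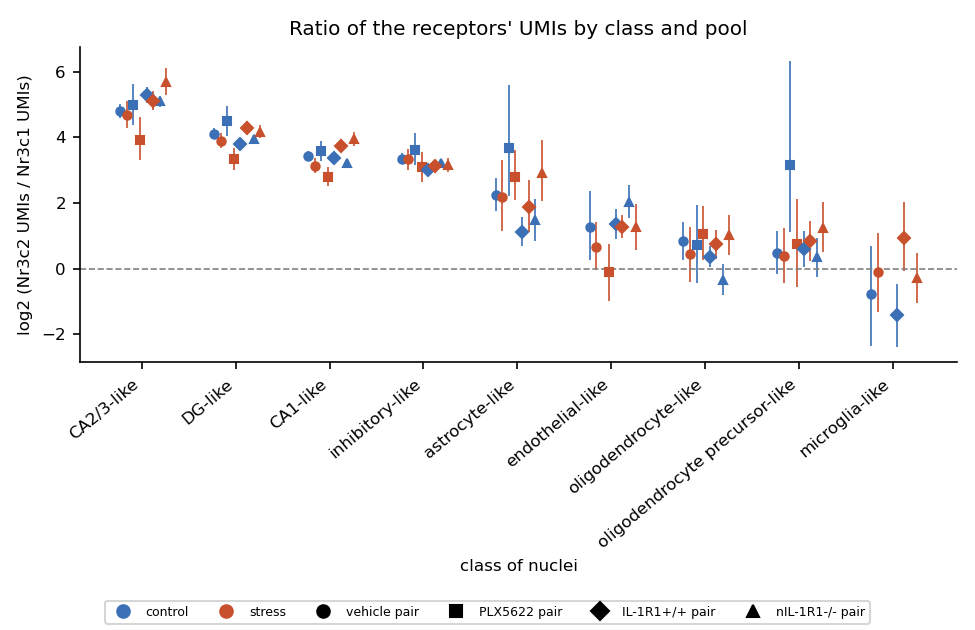
Log2 of Nr3c2 UMIs over Nr3c1 UMIs in each class and pool, with exact 95% intervals that hold counting error only. The colour gives the arm and the shape the pair, and the dashed line marks equal UMIs: CA2/3-like nuclei lie between 3.92 and 5.69 and microglia-like nuclei between −1.40 and 0.94.

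After RSD, Nr3c2 was lower in neurons of every pair. In all neurons, Nr3c2 was at 880.3 CPM in Control-Vehicle, 811 in Control-PLX5622, 1087 in Con-IL-1R1+/+ and 1161 in Con-nIL-1R1-/-, and at 649, 627, 796 and 763 in the stress pools of the same pairs. All 4 stress pools lay below all 4 control pools, as did 5.43% of genes of at least 10 CPM in all neurons, in either direction. Stress over control, the log2 ratio was −0.44 in the vehicle, −0.37 in the PLX5622, −0.45 in the IL-1R1+/+ and −0.61 in the nIL-1R1-/- pair. Median UMIs per neuron were 2756 and 1347.5 in the control and stress pools of the vehicle pair, and 5225.5 and 2785 in the nIL-1R1-/- pair. They were 609 and 636 in the PLX5622 and 3479 and 3491 in the IL-1R1+/+ pair, and the part of depth was not tested. The fit of Nr3c2 over the pairs gave −0.48 (SE 0.10, adjusted p = 0.1499), which did not pass. Nr3c2 was also lower in the DG-like, CA1-like, CA2/3-like and inhibitory-like classes, in 4 of 4 pairs, each with a counting interval below 0, and the fitted log2 fold changes were −0.39 (SE 0.12), −0.45 (SE 0.14), −0.52 (SE 0.13) and −0.34 (SE 0.10), with adjusted p of 0.2113, 0.1571, 0.09972 and 0.3675. Among these classes the control and stress pools separated without overlap in inhibitory-like nuclei, at 558 to 703 CPM against 431 to 511 CPM (3.72% of genes in that class). With DESeq2 the fall of Nr3c2 passed in CA2/3-like nuclei (adjusted p = 0.02688) and in all neurons (adjusted p = 0.004539). edgeR called it in CA2/3-like nuclei without a filter on low counts (adjusted p = 0.003694), without the IL-1R1+/+ pair (adjusted p = 0.049) and within sublibrary 1 (adjusted p = 0.03175), and in all neurons without the filter (adjusted p = 0.001581). With DESeq2, these were 4 of 17 alternatives in CA2/3-like nuclei and 2 of 18 in all neurons. The edgeR adjusted p was 0.6808 and 0.6568 without the vehicle pair, and 0.5251 and 0.5409 without the pair term. Without the filter edgeR called 415 genes higher and 256 lower of 37065 in all neurons, against 4 and 0 of 18081 with it. Thinned to 500 UMIs per nucleus, the edgeR fit in all neurons gave −0.45 (adjusted p = 0.08676).

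In oligodendrocyte-like and OPC-like nuclei Nr3c2 differed little. The fitted log2 fold change was −0.04 (SE 0.17) in oligodendrocyte-like and −0.03 (SE 0.20) in OPC-like nuclei, where control and stress pools overlapped at 225 to 337 CPM against 245 to 282 CPM and at 251 to 441 CPM against 270 to 296 CPM. In astrocyte-like nuclei it was −0.30 (SE 0.19, adjusted p = 0.7256). In endothelial-like nuclei Nr3c2 was at 599 to 768 CPM in control and 264 to 677 CPM in stress pools, lower in 2 of 3 pairs. Microglia-like nuclei, which were not tested, went the other way. Nr3c2 was there at 174.5 to 206 CPM in control and 244 to 376.5 CPM in stress pools, on 87 UMIs in all. Whether the response of Nr3c2 differed between neurons and glia was not tested.

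Nr3c1 was lower with RSD in 8 of the 9 classes fitted, with all neurons counted beside the neuronal classes they include, and passed in none. In CA1-like nuclei Nr3c1 was at 92.8 CPM in Control-Vehicle, 73.5 in Control-PLX5622, 149 in Con-IL-1R1+/+ and 151 in Con-nIL-1R1-/-, and at 79.0, 81.9, 91.9 and 79.5 in the stress pools of the same pairs. The control pools of the transgenic pairs stood high and the other 6 pools lay together. In DG-like nuclei the same control pools, at 114 and 105 CPM, were above the other 6, which ran from 54.1 to 76.5 CPM. The fitted log2 fold change was −0.48 in CA1-like (SE 0.17, adjusted p = 0.1742), −0.31 in DG-like (SE 0.14, adjusted p = 0.3792), −0.56 in oligodendrocyte-like (SE 0.22, adjusted p = 0.4135) and −0.79 in astrocyte-like nuclei (SE 0.29, adjusted p = 0.5881). In all neurons it was −0.08 (SE 0.10), closer to 0 than in any of the 4 neuronal classes named above.

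Fkbp5 (chr17:28618058-28737521, minus strand, GRCm39) held the receptors' DNA element more than once. The exact palindrome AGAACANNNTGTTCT, which reads the same on both strands, was searched in each gene and the 10 kb before its start. It was found in 316 of 21770 protein-coding genes (1.45%), at 0.0247 sites per 100 kb, and in 2 of the 10 genes here, Fkbp5 with 2 sites in 129.5 kb and Sgk1 with 1 site in 127.7 kb. These 3 sites are shown because they are the only such elements within the 10 genes, with the palindrome in capitals, 5′ to 3′ on the strand of the gene (minus for Fkbp5, plus for Sgk1, GRCm39):
Fkbp5 intron, 98.2 kb after the start, chr17:28639288-28639317: ccacattcAGAACAGGGTGTTCTgtgctct
Fkbp5 intron, 76.1 kb after the start, chr17:28661386-28661415: tttgtttgAGAACAGCTTGTTCTaggcttt
Sgk1 intron, 111.5 kb after the start of the gene model, chr10:21869593-21869622: tgcggaaAGAACAGAATGTTCTcggagatt
The Sgk1 letters also stand in 1 of the 6 Sgk1 start windows of RefSeq (GRCm38.p6, chr10:21993640-21993939, from 250 bases before to 50 after a start), and 0.00913% of 32851 such windows hold the palindrome. Zbtb16 and Per1 had no exact match, which says only that these letters are not in the windows searched.

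In oligodendrocyte-like nuclei Fkbp5 was at 267 CPM in Control-Vehicle, 131 in Control-PLX5622, 47.0 in Con-IL-1R1+/+ and 22.9 in Con-nIL-1R1-/-. In the stress pools of the same pairs it was at 305, 208, 236 and 255 CPM. These values rest on 388 UMIs in all over 8 pools, with 119 nuclei in Control-PLX5622 and 146 in Con-nIL-1R1-/-. The stress pools lay close together while the controls spread widely, and Control-Vehicle was as high as the stress pools, so the groups overlapped. The log2 ratio was 0.19 in the vehicle and 0.67 in the PLX5622 pair, with intervals that include 0, and 2.33 in the IL-1R1+/+ and 3.48 in the nIL-1R1-/- pair, with intervals above 0. The fit over the pairs gave a 2.99-fold rise (log2 1.58, SE 0.27, adjusted p = 0.001271). Without the vehicle pair it was 2.40 on the log2 scale (adjusted p = 6.457e-15). The call was lost with DESeq2 (adjusted p = 1), without the IL-1R1+/+ pair (log2 1.23, adjusted p = 0.4546), and with nuclei thinned to 500 UMIs (log2 1.45, adjusted p = 0.1614).

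The response of Fkbp5 in oligodendrocyte-like nuclei was larger in the transgenic than in the diet pairs, by 2.36 on the log2 scale (SE 0.424, adjusted p = 0.0292, edgeR, a contrast chosen after the values were seen). It was the only gene called of 4456 in that class (0.0224%). The transgenic and diet experiments differ in line and in depth. Median UMIs per oligodendrocyte-like nucleus were 1009.5 to 1626.5 in transgenic and 404 to 1093 in diet pools. The diet mice were also given AIN-76A chow, with PLX5622 in the pair of that name. These differences cannot be told apart. For Zbtb16 in the same nuclei the difference was 0.92 (adjusted p = 0.542). Marker levels of other cells overlapped between control and stress pools of this class. The 4 pan-neuronal markers summed to 1917 to 2879 CPM in control and 1577 to 2809 CPM in stress pools, and the 7 microglia markers to 19.7 to 38.2 CPM and 17.2 to 50.8 CPM, with up to 5 of the 7 at 0, against 6609 to 8514 CPM in microglia-like nuclei, and their part in the result was not tested.

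Fkbp5 was higher with RSD in every class fitted, by a log2 fold change of 0.11 to 2.09. In endothelial-like nuclei it was at 103, 21.1 and 49.4 CPM in Control-Vehicle, Con-IL-1R1+/+ and Con-nIL-1R1-/-, and at 221, 231, 175 and 204 CPM in Stress-Vehicle, Stress-PLX5622, Stress-IL-1R1+/+ and Stress-nIL-1R1-/-. All stress pools were above all control pools, as 7.75% of genes in that class were on 1 side or the other, and the fit over 3 pairs gave 2.09 (SE 0.42, adjusted p = 0.4578). These values rest on 30 to 64 nuclei per pool and 153 UMIs in all. Markers of other cells also separated in this class: the 7 subicular and cortical markers summed to 1571 to 1971 CPM in control and 2493 to 2909 CPM in stress pools, and the 5 Cajal-Retzius markers to 227 to 409 CPM and 109 to 143 CPM. Their part in the Fkbp5 and Zbtb16 values of this class was not tested. In astrocyte-like nuclei Fkbp5 was at 12.3 to 89.8 CPM in control and 88.1 to 179 CPM in stress pools, which touch only at Control-Vehicle, and the fit gave 1.41 (SE 0.41, adjusted p = 0.4731). In OPC-like nuclei it was at 0 to 174 CPM against 144 to 253 CPM, with a fit of 0.96 (SE 0.30, adjusted p = 0.3277).

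In neurons the differences of Fkbp5 were small. In all neurons it was at 98.7 CPM in Control-Vehicle, 94.7 in Control-PLX5622, 68.4 in Con-IL-1R1+/+ and 61.8 in Con-nIL-1R1-/-, and at 107, 98.5, 94.2 and 98.2 CPM in the stress pools of the same pairs. The control pools of the transgenic pairs stood low, and the other 6 pools lay together. The log2 ratio was 0.12 and 0.06 in the diet pairs and 0.46 and 0.67 in the transgenic pairs, and the fit gave 0.32 (SE 0.13, adjusted p = 0.3008). The difference in response between transgenic and diet pairs, 0.56 (SE 0.169), did not pass (adjusted p = 0.287). By class the fit gave 0.26 (DG-like), 0.36 (CA1-like), 0.11 (CA2/3-like) and 0.25 (inhibitory-like), and none passed.

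Microglia-like nuclei held the most Fkbp5 of the 9 classes compared, 1373 ± 662 CPM (SD, n = 5 pools) against 53.9 to 184 CPM in the other classes, and were above oligodendrocyte-like nuclei in 5 of 5 pools. A permutation test over 5 pools cannot go below 0.0625. Fkbp5 stood there at 1618 CPM in Control-Vehicle and 902 in Stress-Vehicle, at 474 in the control and 2048 in the stress pool of the IL-1R1+/+ pair, and at 900.2 (17 nuclei) and 1825 in those of the nIL-1R1-/- pair. The stress pool was lower in the vehicle pair and higher in the transgenic pairs, and control and stress pools overlapped. In the same nuclei Zbtb16 was at 235 and 49.9 CPM in Control-Vehicle and Con-IL-1R1+/+ and at 414, 316 and 345 CPM in the stress pools, without overlap, but 22.2% of genes did not overlap among so few pools. Nr3c1 ran from 353 to 461 CPM in those control and from 196 to 345 CPM in the stress pools of microglia-like nuclei, and was not tested. Nr3c2 (174.5 to 206 CPM against 244 to 376.5 CPM) and Tsc22d3 (37.4 to 58.9 CPM against 122 to 256 CPM) were higher in the stress pools, without overlap. They rest on 87 and 41 UMIs in all and were not tested.

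Fkbp4, the immunophilin that links the receptor to dynein and nuclear transport, was low everywhere, with means of 5.30 to 15.7 CPM, and was tested in 5 classes without a call, at log2 fold changes of −0.38 to 0.26. Hsd11b1, which regenerates active corticosterone from its inert 11-keto form, was seen chiefly in astrocyte-like nuclei, at 33.1 ± 25.1 CPM (SD, n = 8), and in CA2/3-like nuclei, at 11.8 ± 3.01 CPM. Its mean was 1.95 to 3.06 CPM in the DG-like, CA1-like and inhibitory-like classes, and 1 UMI or none was counted in oligodendrocyte-like, OPC-like, endothelial-like and microglia-like nuclei. In astrocyte-like nuclei Hsd11b1 ranged from 0 to 66.4 CPM in control and from 16.3 to 58.7 CPM in stress pools on 53 UMIs in all, and the groups overlapped. It was tested in CA2/3-like nuclei and in all neurons, with log2 fold changes of −0.13 and −0.10, and did not pass.

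Zbtb16 (chr9:48563141-48748664, minus strand, GRCm39) gave the clearest response of the 10 genes. In oligodendrocyte-like nuclei it was at 1313 CPM in Control-Vehicle, 785 in Control-PLX5622, 251 in Con-IL-1R1+/+ and 233 in Con-nIL-1R1-/-, and at 2160, 1703, 715 and 995 CPM in the stress pools of the same pairs. Stress was above control within every pair, but the diet pools were higher than the transgenic pools in both arms, so the groups overlapped. The log2 ratio was 0.72, 1.12, 1.51 and 2.1 in the vehicle, PLX5622, IL-1R1+/+ and nIL-1R1-/- pairs, each with a counting interval above 0. The fit gave a 2.52-fold rise (log2 1.33, SE 0.16, adjusted p = 7.396e-07), and DESeq2 called it too. It was lost in a fit without the pair term (adjusted p = 0.7873) and with 15 principal components (adjusted p = 0.2045), where the class could be fitted over 3 pairs only.

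In OPC-like nuclei, which are the dividing precursors of oligodendrocytes, Zbtb16 was at 712, 661, 229 and 187 CPM in Control-Vehicle, Control-PLX5622, Con-IL-1R1+/+ and Con-nIL-1R1-/-, and at 990, 585, 650.0 and 721 CPM in the stress pools of the same pairs. It was higher with stress in 3 of 4 pairs and lower in the PLX5622 pair, whose interval includes 0. The fit gave a 2.02-fold rise (log2 1.02, SE 0.20, adjusted p = 0.01667). The call was lost without the IL-1R1+/+ pair (log2 0.82, adjusted p = 0.6757) or the nIL-1R1-/- pair (log2 0.70, adjusted p = 0.3852), and with DESeq2 (adjusted p = 0.9999).

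In astrocyte-like nuclei Zbtb16 was at 785, 539, 242 and 173 CPM in the control pools, in the same order of pairs, and at 976, 712, 499 and 490 CPM in the stress pools. Stress was higher in 4 of 4 pairs, and the fit of 0.71 (SE 0.20, adjusted p = 0.4731) did not pass. In endothelial-like nuclei Zbtb16 was at 1240, 501 and 265 CPM in Control-Vehicle, Con-IL-1R1+/+ and Con-nIL-1R1-/-, and at 2443, 884 and 955 CPM in the stress pools of those pairs, with a fit of 1.18 (SE 0.28, adjusted p = 0.4578). In all neurons it was at 686, 581, 488 and 535 CPM in the control pools and at 861, 690, 625 and 682 CPM in the stress pools, higher in 4 of 4 pairs, with a fit of 0.31 (SE 0.10, adjusted p = 0.239). The difference was of the same sign in every neuronal class (inhibitory-like 0.27, DG-like 0.27, CA1-like 0.19, CA2/3-like 0.05), and none passed.

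**Figure D4:**
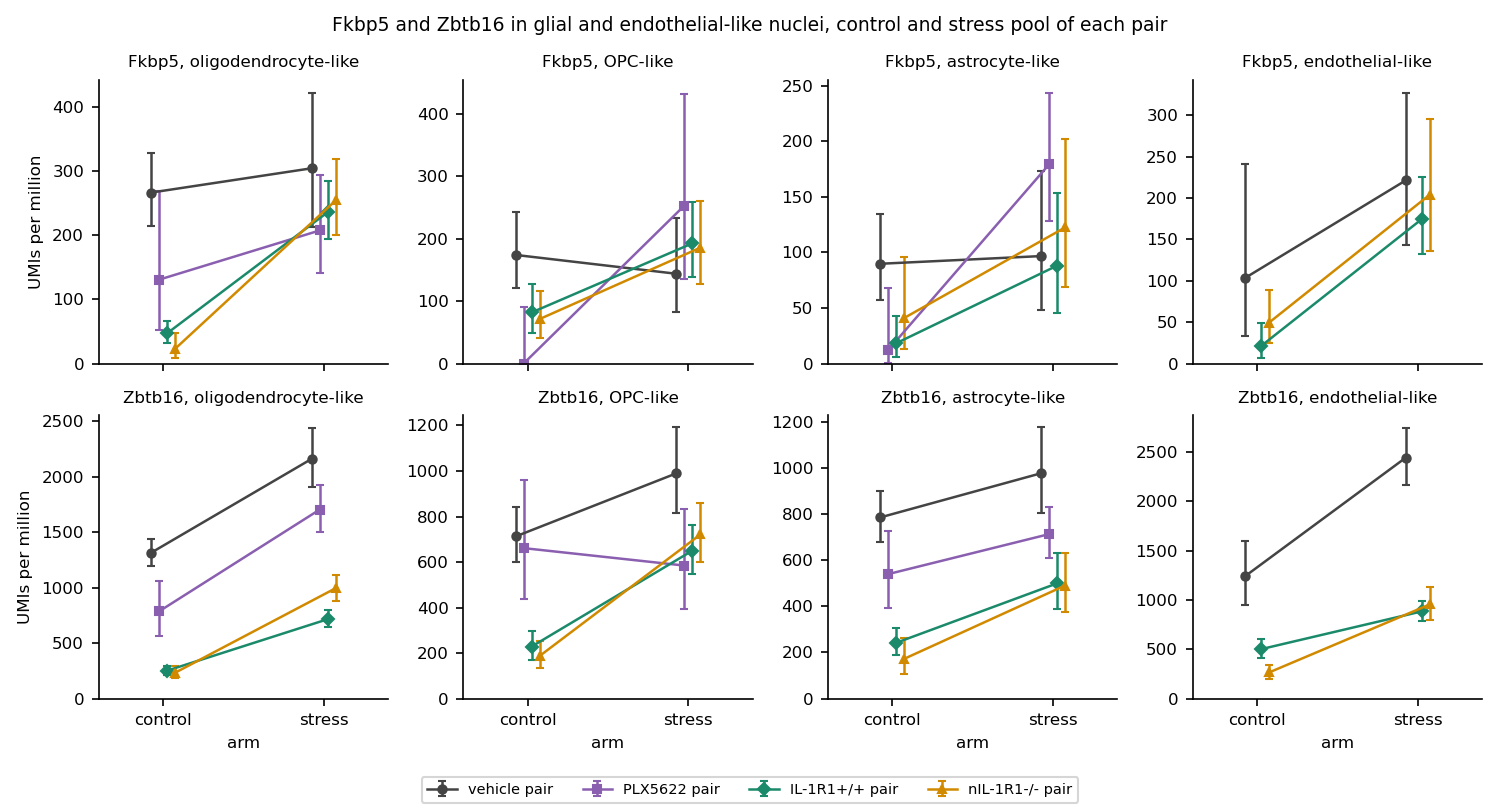
Fkbp5 (top row) and Zbtb16 (bottom row) in CPM of the class, in the control and stress pool of each pair joined by a line, with exact 95% Poisson intervals that hold counting error only. Zbtb16 in oligodendrocyte-like nuclei rises in all 4 pairs, from 233 to 1313 in control to 715 to 2160 in stress pools, while Fkbp5 there rises mainly in the IL-1R1+/+ and nIL-1R1-/- pairs. The PLX5622 pair is not drawn for endothelial-like nuclei, with 17 nuclei in its control pool.

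Per1, a core gene of the circadian clock that corticosteroids also induce, was higher with stress in all neurons of every pair. The stress pools were collected 14 h after the final night of RSD, which ended at 18:00. The clock time at which the control pools were collected is not given in the sources used here. In all neurons Per1 was at 48.8 CPM in Control-Vehicle, 38.7 in Control-PLX5622, 39.7 in Con-IL-1R1+/+ and 46.0 in Con-nIL-1R1-/-, and at 73.6, 63.9, 72.0 and 74.8 CPM in the stress pools of the same pairs. All stress pools were above all control pools, as 5.43% of genes did not overlap in either direction. The 5 choroid plexus markers also separated in all neurons, at 77.5 to 164 CPM in control and 53.4 to 63.9 CPM in stress pools, and their part in the result was not tested. The log2 ratios were 0.59, 0.72, 0.86 and 0.70, each with an interval above 0, and the fit gave a 1.64-fold difference (log2 0.71, SE 0.10, adjusted p = 0.05876), just outside the threshold. DESeq2 called it (adjusted p = 5.038e-05), as did edgeR with library totals (0.04384), with doublets left out (0.04518), without the PLX5622 pair (0.02388), with thinned nuclei (0.007883), without a filter on low counts (3.413e-05) and within sublibraries 1 and 2, while without the IL-1R1+/+ pair the adjusted p was 0.2811 and without the vehicle pair 0.4188. In CA1-like nuclei Per1 was at 55.6, 45.3, 52.6 and 48.1 CPM in control and 95.7, 96.7, 75.7 and 93.3 CPM in stress pools, in the same order, again without overlap, as for 5.6% of genes in that class. The fit there gave 0.80 (SE 0.15, adjusted p = 0.1034), and DESeq2 called it (adjusted p = 0.02386). It was called in 4 of 17 alternatives, DESeq2 among them.

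Per1 was also above 0 in every other class in which it was tested. OPC-like nuclei held too little of it for a test, and there it was higher in 2 pairs and lower in 2, on 40 UMIs in all. It was higher in 4 of 4 pairs in inhibitory-like nuclei (27.0 to 59.2 CPM in control, 46.6 to 74.1 CPM in stress pools, fit 0.47) and in 3 of 4 pairs in DG-like (fit 0.49) and CA2/3-like nuclei (fit 0.50). The exceptions were the nIL-1R1-/- pair in DG-like nuclei, at 32.6 CPM in control and 28.4 CPM in stress, and the IL-1R1+/+ pair in CA2/3-like nuclei, at 33.4 and 31.8 CPM. In oligodendrocyte-like, astrocyte-like and endothelial-like nuclei the fit gave 0.51, 0.33 and 0.25 on 107 to 193 UMIs in all. None of these passed.

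**Figure D5:**
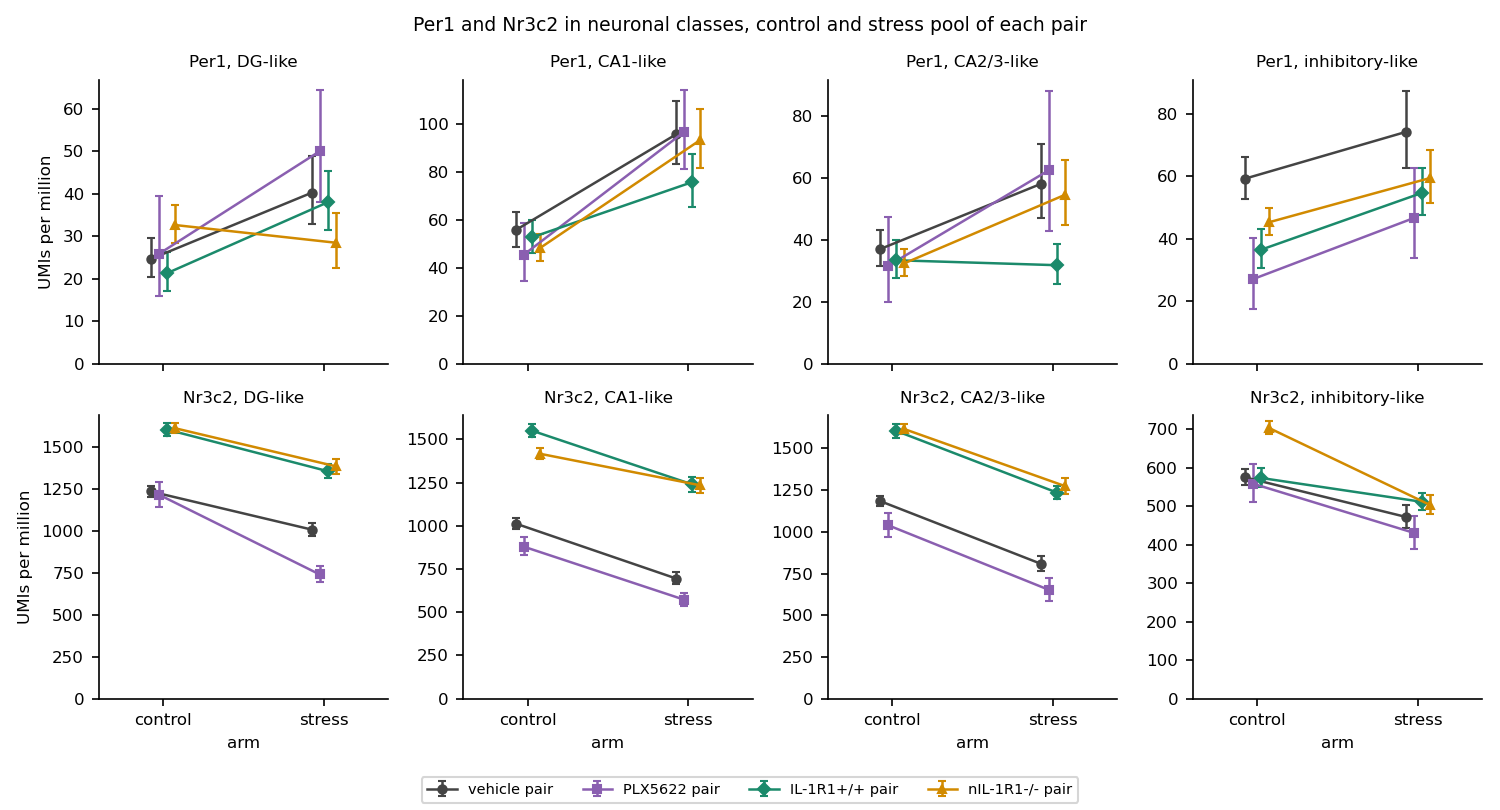
Per1 (top row) and Nr3c2 (bottom row) in CPM of the class, in the control and stress pool of each pair joined by a line, with exact 95% Poisson intervals that hold counting error only. Per1 in CA1-like nuclei is at 45.3 to 55.6 in control and 75.7 to 96.7 in stress pools, and Nr3c2 falls in every pair of every neuronal class shown.

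Sgk1, a kinase of ion transport that both receptors induce, was highest in OPC-like nuclei (297 ± 53.5 CPM, SD, n = 8) and in CA2/3-like nuclei (218 ± 40.0 CPM), and was at 57.1 ± 7.89 CPM in DG-like nuclei. After RSD it did not move as Per1 did. In CA1-like nuclei Sgk1 was at 123 to 138 CPM in control and 109 to 122 CPM in stress pools, lower and without overlap, as for 5.6% of genes in that class, and the test did not pass. In oligodendrocyte-like nuclei it was at 112 to 213 CPM in control and 119 to 255 CPM in stress pools, and in astrocyte-like nuclei at 12.3 to 24.7 CPM and 29.4 to 44.0 CPM, without overlap (3.05% of genes in that class) on 35 UMIs in all. Over 7 classes the log2 fold change of Sgk1 ran from −0.24 to 0.36, with no adjusted p below 0.3874.

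Tsc22d3, which encodes the glucocorticoid-induced leucine zipper, was a gene of glia here. It was at 231 ± 50.0 CPM in oligodendrocyte-like, 121 ± 85.4 CPM in microglia-like (n = 5), 77.4 ± 29.2 CPM in astrocyte-like and 30.7 ± 25.4 CPM in endothelial-like nuclei (n = 7), and at 0.983 to 2.98 CPM in OPC-like nuclei and the 4 neuronal classes (SD, n = 8 unless given). In oligodendrocyte-like nuclei Tsc22d3 was at 161 to 312 CPM in control and 235 to 263 CPM in stress pools, which overlapped, and the log2 fold change of 0.25 did not pass. Errfi1, an inhibitor of the epidermal growth factor receptor, was highest in oligodendrocyte-like nuclei (60.2 ± 15.9 CPM) and at 11.2 to 25.8 CPM in the neuronal classes and OPC-like nuclei. Its log2 fold change ran from −0.39 to 0.34 over 6 classes, and none passed.

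Each genotype and diet had 1 pool per arm, so these pools are set side by side with counting intervals and were not tested. In oligodendrocyte-like nuclei the log2 ratio of Stress-nIL-1R1-/- to Stress-IL-1R1+/+ was 0.11 for Fkbp5 (95% counting interval −0.34 to 0.55) and 0.48 for Zbtb16 (0.25 to 0.71). In all neurons it was 0.06 for Fkbp5 (−0.02 to 0.14), 0.06 for Per1 (−0.04 to 0.15) and −0.06 for Nr3c2 (−0.09 to −0.03). Between the control pools of the same genotypes, Fkbp5 differed by −1.04 (−2.46 to 0.17) in oligodendrocyte-like nuclei and by −0.14 (−0.22 to −0.07) in all neurons, and Per1 by 0.21 (0.12 to 0.31) and Nr3c2 by 0.10 (0.08 to 0.11) in all neurons. The log2 ratio of Stress-PLX5622 to Stress-Vehicle in all neurons was −0.12 for Fkbp5 (−0.25 to 0.01), −0.21 for Per1 (−0.37 to −0.04) and −0.05 for Nr3c2 (−0.10 to 0.00).

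The wider pathway was read from 50 further genes in 4 lists: the receptor complex (11 genes such as Hsp90aa1 and Ptges3), coregulators (12, such as Ncoa1 and Ncor1), steroid metabolism and transport (7, such as Abcb1a) and other responsive genes (20, such as Klf9 and Ddit4). In oligodendrocyte-like nuclei 21 of the 50 could be tested and 1 was called, Hif3a, a factor of the hypoxia pathway, with a log2 fold change of 1.65 (SE 0.39, adjusted p = 0.04741). It was called in 3 of 12 alternatives. Leaving out 1 pair gave 1.17 (nIL-1R1-/-, adjusted p = 0.282), 1.46 (IL-1R1+/+, 0.5638), 1.67 (PLX5622, 0.2061) and 2.52 (vehicle, 0.000114), and it was lost with RLE size factors (0.05296) and DESeq2 (0.7434). Of the 20 other responsive genes, 6 passed the filter on low counts there, Hif3a among them. All 6 were above 0, with a median of 0.85, against −0.001 over all genes of the class. The filter was set by the size of an arm, so a low gene could pass through the arm in which it was higher. The lists were chosen with earlier results of these data known, so the medians of lists are a description and were not tested. The median was −0.03 for the 11 coregulators tested, and 0.35 for the 8 tested among the 10 genes described here. In CA1-like nuclei 9 of 10 receptor complex genes were above 0, with a median log2 fold change of 0.33 against 0.008 over all genes. Other neuronal classes were alike, with 9 of 10 above 0 in DG-like (median 0.189) and 7 of 9 in CA2/3-like nuclei (0.156). The same held for 8 of 11 in inhibitory-like nuclei (0.273) and 10 of 11 in all neurons (0.185), and for 2 of 4 in oligodendrocyte-like nuclei. Of the 10 in CA1-like nuclei edgeR called 0, with 5 at an unadjusted p under 0.05, as for 17.2% of all genes in that class. Among these 5, Ptges3 was lower (log2 fold change −0.48). Outside oligodendrocyte-like nuclei, edgeR called 0 of the 50 genes in the 8 other classes. Counts at an unadjusted p under 0.05, in either direction, are given with the share over all genes. They were 8 of 21 tested in oligodendrocyte-like (8.12%), 7 of 31 in DG-like (12.1%) and 10 of 30 in CA1-like nuclei (17.2%). In CA2/3-like and inhibitory-like nuclei they were 6 of 27 (16.1%) and 6 of 32 (8.49%), and in all neurons 10 of 43 (13.9%). OPC-like, astrocyte-like and endothelial-like nuclei had 1 of 14 (6.07%), 1 of 13 (7.53%) and 1 of 18 (7.94%). DESeq2 called 6 tests of the 50 genes over all classes, and in all neurons 149 genes higher and 51 lower of 18081.

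By the correlation of mean log2 level over 13 named classes, the genes most like Nr3c2 were Dnah9 (Pearson r = 0.925), Galnt18 (0.914) and Prkag2 (0.913), those most like Nr3c1 were Nipbl (0.884), Mbnl1 (0.865) and Fam172a (0.862), and those most like Fkbp5 were Abhd15 (0.911), Cx3cr1 (0.91) and Gm15987 (0.908). The 13 points share pools and libraries, and the values are a description. Mural-like and medium spiny-like nuclei, among the 13, rest on 1 pool each, cerebellar granule-like on 2 and Cajal-Retzius-like on 6.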

How the data were processed

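Hippocampal nuclei from 8 pools were barcoded by the split-pool method and sequenced as 4 sublibraries, each with nuclei of all pools. The deposited files hold UMI counts per nucleus and gene, 1 matrix per pool, made by the authors with reads placed on mm39, and Seurat 4.1.1 is named in the submitters' processing notes. The deposited samples are the sublibraries, so each pool's group was read from the treatment text of the labels. Nuclei over 20% mitochondrial counts (516) were left out, and 0 columns of per-sample values went unused. Clusters came from scanpy 1.11.5 and leidenalg 0.10.2 (2000 variable genes, 30 components, 15 neighbours, resolution 1.0, and 0.3 for glia), without the 10 genes and the pathway lists. A cluster was named where at least 4 markers were expressed, with a score of at least 0.4 and a lead of 1.25 over the next class, a rule settled after the cluster tables were seen. Automatic doublet calls marked 0 or 1 nuclei in 7 pools and 1484 of 6511 in Con-nIL-1R1-/-, so they were not used and all nuclei were kept, and leaving out the 6% of nuclei with the highest doublet scores was an alternative.

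Counts were summed per class and pool of at least 20 nuclei, in at least 3 pairs, and tested with edgeR 4.0.16 (quasi-likelihood, TMM scaling, its default filter on low counts, a term for the pair) in R 4.3.3, with Benjamini-Hochberg adjustment over all genes of a class and a threshold of 0.05. The standard error is the log2 fold change over the root of the test statistic. DESeq2 1.42.0 was an alternative. Intervals are exact 95% Poisson or binomial intervals and cover counting error only. The pairs are set by the design. Deviations from the group means correlated within pairs at 0.15 to 0.63 in the neuronal and −0.21 to 0.31 in the glial and endothelial classes. The members and lists were chosen with earlier results of these data known, and all 10 members are named. The method was tested on simulated data.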

Additional observations from a re-analysis of the deposited data

Results flagged for a closer look

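In all, 5 groups of 4 pools, of 129 looked at, had 1 pool set apart by a gap that was large against the range of the 4. The rule takes no account of how small that range is or of counting error, and chance alone gives about 1 in 20. They were Nr3c1 in OPC-like nuclei of Control-PLX5622 (48.98 CPM), Nr3c2 in inhibitory-like nuclei of Con-nIL-1R1-/- (702.9 CPM), Nr3c2 in OPC-like nuclei of Stress-Vehicle (269.9 CPM), Hsd11b1 in CA2/3-like nuclei of Control-PLX5622 (5.496 CPM) and Per1 in CA1-like nuclei of Stress-IL-1R1+/+ (75.72 CPM). The Nr3c1 value rests on 2 UMIs. The Nr3c2 value in OPC-like nuclei rests on 30 UMIs, and the stress pools there ran only from 269.9 to 295.9 CPM.

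The response of Fkbp5 in oligodendrocyte-like nuclei was 2.358 higher on the log2 scale in the transgenic than in the diet pairs. That contrast was chosen after the values were seen. The experiments differ in line, treatment and depth, which cannot be told apart. In other genes the stress pool was above its control in 1 pair and below it in another, with counting intervals on opposite sides of 0, and the difference was not tested. For Fkbp5 in microglia-like nuclei the log2 ratio was −0.843 in the vehicle and 2.112 in the IL-1R1+/+ pair. For Sgk1 in oligodendrocyte-like nuclei it was −0.845 in the vehicle and 0.913 in the IL-1R1+/+ pair. For Zbtb16 in CA2/3-like nuclei it was −0.175 in the IL-1R1+/+ pair, 0.197 in the nIL-1R1-/- and 0.255 in the vehicle pair. For Errfi1 in CA1-like nuclei it was −2.021 in the PLX5622 and 0.896 in the nIL-1R1-/- pair.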

How the results depend on the processing

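Of the 10 genes over all classes, 3 tests were called higher and 0 lower, and 1 gene of the pathway lists was called. Without a filter on low counts these counts were 7, 4 and 11, with DESeq2 3, 2 and 6, and in a fit without the replicate block, which ignores the pairing, 0, 0 and 0. With 15 principal components 1 was higher and 0 pathway genes were called, and within sublibrary 3 the same counts were 1 and 0. Within sublibrary 1, 1 was lower. The pathway count was 0 with RLE size factors, with library totals, with nuclei thinned to 500 UMIs, with doublets left out, and within sublibraries 2, 3 and 4. Leaving out 1 pair at a time gave 1 to 5 higher, 0 to 1 lower and 0 to 2 pathway genes, with the 1 higher call without the IL-1R1+/+ pair. The causes were not tested.

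Of the log2 fold changes, 633 values under an alternative kept their direction and side of the threshold, 27 passed newly, 25 no longer passed and 22 changed sign. Within single sublibraries, Fkbp5 was −0.031 in DG-like (sublibrary 3), −0.142, −0.084 and −0.091 in CA2/3-like (2, 3 and 4) and −0.021 in inhibitory-like nuclei (2), Zbtb16 was −0.051 and −0.016 in CA2/3-like nuclei (1 and 3), Nr3c2 was 0.080 and 0.013 in oligodendrocyte-like (1 and 4), 0.129 in astrocyte-like (1) and 0.095 in endothelial-like nuclei (1), and Nr3c1 was −0.481 in endothelial-like nuclei (1). Thinned, Nr3c2 was 0.107 in oligodendrocyte-like and 0.052 in OPC-like nuclei, and with 15 components 0.099 in OPC-like nuclei. Leaving out 1 pair at a time gave −0.004 to 0.173 for Fkbp5 and −0.009 to 0.124 for Zbtb16 in CA2/3-like nuclei, −0.109 to 0.026 for Nr3c2 in oligodendrocyte-like and −0.116 to 0.068 in OPC-like nuclei, −0.296 to 0.092 for Nr3c1 in OPC-like and −0.039 to 0.092 in endothelial-like nuclei, and −0.054 to 0.676 for Per1 in endothelial-like nuclei.

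Among the named calls, Fkbp5 in oligodendrocyte-like nuclei was also lost without the replicate block (1.21, adjusted p = 0.7643), with 15 components (adjusted p = 0.9599) and within sublibrary 1 (adjusted p = 0.3012), and Zbtb16 in OPC-like nuclei without the block (adjusted p = 0.8955), thinned (adjusted p = 0.3395) and within sublibraries 1, 2 and 3. Without 3 unnamed neuronal clusters led by glial genes, an alternative chosen after seeing the data, Per1 in all neurons was 0.71 (adjusted p = 0.07654) and Nr3c2 −0.47 (adjusted p = 0.1462). The shallow PLX5622 pools and the few glial nuclei limit what could be detected. Adjusted p-values here are from edgeR's quasi-likelihood test.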
